A study of Mus musculus with 7 samples.

Results

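Newly made RNA of GFI1+ IAHC cells that had been given the NOTCH ligand Fc-JAG1 was compared, gene by gene, with that of cells kept under compE, an inhibitor of γ-secretase. The comparison takes 4 of the 7 libraries of the series, Fc-JAG1 1, Fc-JAG1 3, compE 1 and compE 2, and no washed-out library. Of 55487 genes in the table of counts, 8839 had 10 or more counts in both libraries of at least one condition and were tested. Of these, 5171 had 10 or more counts in all 4 libraries and are described apart, 1719 reached 10 in both Fc-JAG1 libraries but not in all 4, and 1949 did so in both compE libraries but not in all 4. Another 14051 genes with at least 1 count were not tested, and 32597 had no count in these libraries.

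IAHC are the clusters of round cells that bud from the wall of the embryonic dorsal aorta. Here they were sorted at E11.5 from the AGM (aorta, gonad and mesonephros) of mouse embryos as CD31+cKIT+GFI1+ cells, with GFI1 read from a tomato reporter in the Gfi1 gene. The labels give the strain as CD1/Gf1+ for both groups, and every library carries this reporter. Each biological sample pooled embryos by the methods, while the labels give an embryo number. Both groups spent a night in compE, were washed, and were split into sets of 300 to 400 cells for 4 h in methylcellulose with 0.3 mM EU, a uridine analogue that enters newly made RNA. The Fc-JAG1 group then received recombinant JAG1 fused to an antibody Fc part, given as 4 mg/ml in the labels and 4 μg/ml in the methods, and no inhibitor. The compE group received the inhibitor again, given as 10 mM in the labels and 10 μM in the methods. The groups therefore differ both in ligand and in inhibitor, and these cannot be told apart here. The EU-labelled RNA was pulled down and amplified from few cells, and the reads carry no molecular identifiers, so a high count can come from a small number of captured molecules. In such bulk samples, fewer cells of a type and less RNA per cell cannot be told apart.

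As background, a NOTCH receptor bound by JAG1 or a DLL ligand on a neighboring cell is cut by γ-secretase, and the freed intracellular domain enters the nucleus and joins RBPJ to switch on genes such as those of the Hes and Hey families. A ligand on the same cell can instead hold the receptor inactive, which is called cis inhibition. In the AGM, NOTCH signaling is needed to form hematopoietic stem cells (HSCs) from arterial endothelium. The comparison asks for which genes newly made RNA was higher or lower once the ligand was present and cleavage was allowed.

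Total counts were 32696854 in Fc-JAG1 1, 26352927 in Fc-JAG1 3, 28417502 in compE 1 and 33974693 in compE 2. The libraries differed far more in how many genes they held. Fc-JAG1 1 had 11600 genes and compE 2 had 12083 genes with 10 or more counts, against 8006 in Fc-JAG1 3 and 8096 in compE 1. In the gene-rich pair, the 100 genes with most counts took 12.3% and 11.0% of the counts, and in the gene-poor pair 17.8% and 17.4%. Mitochondrially encoded genes took 1.88% in Fc-JAG1 1 and 1.24% in compE 2, but 7.35% in Fc-JAG1 3 and 7.07% in compE 1. Each condition thus holds a gene-rich and a gene-poor library, so this split crosses the conditions.

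**Figure D1:**
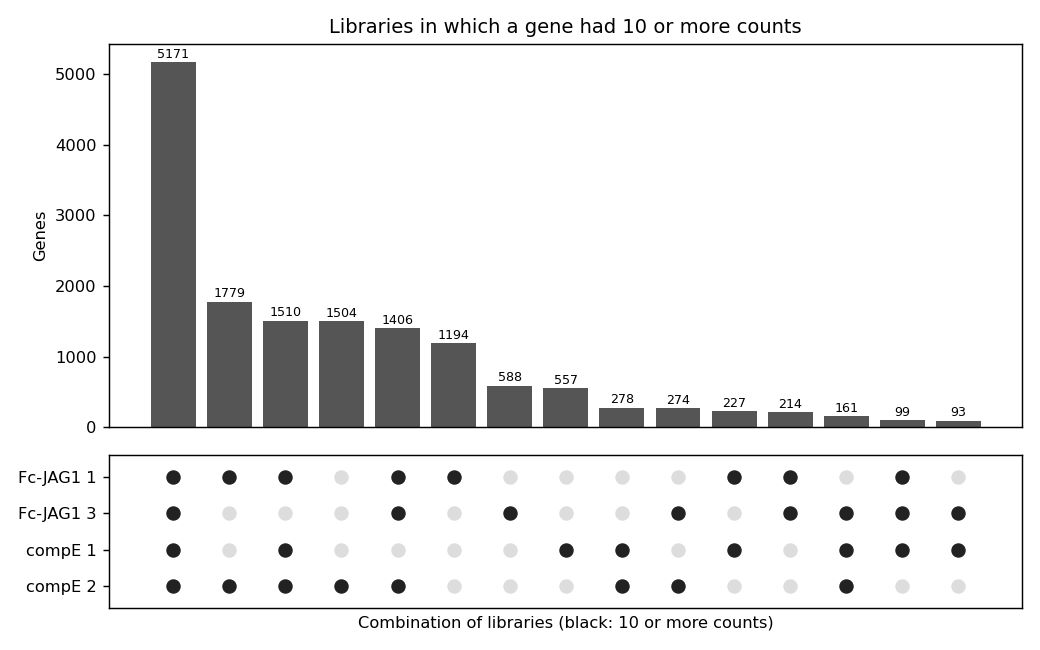
Bars give the number of genes with 10 or more counts in each combination of the 4 libraries (black dots below each bar). After the 5171 genes of all 4 libraries, the commonest combination is Fc-JAG1 1 with compE 2, at 1779 genes, against 214 for the Fc-JAG1 libraries alone and 278 for the compE libraries alone.

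The gene-rich libraries of the different conditions resembled each other more than the libraries of either condition did, while the gene-poor libraries stood farthest apart. Over the 5171 genes with 10 or more counts in all 4 libraries, the median absolute difference in log2 CPM (counts scaled to the size of the library) was 0.58 between Fc-JAG1 1 and compE 2, which differ in condition. It was 1.36 between the Fc-JAG1 libraries and 1.30 between the compE libraries. Between the gene-poor libraries, Fc-JAG1 3 and compE 1, it was 1.58. Spearman correlations across these genes, which are not independent replicates, were 0.841 for the gene-rich pair, 0.550 within Fc-JAG1, 0.563 within compE and 0.421 for the gene-poor pair. The spread between libraries of a condition was thus larger than the difference between conditions in the gene-rich pair.

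**Figure D2:**
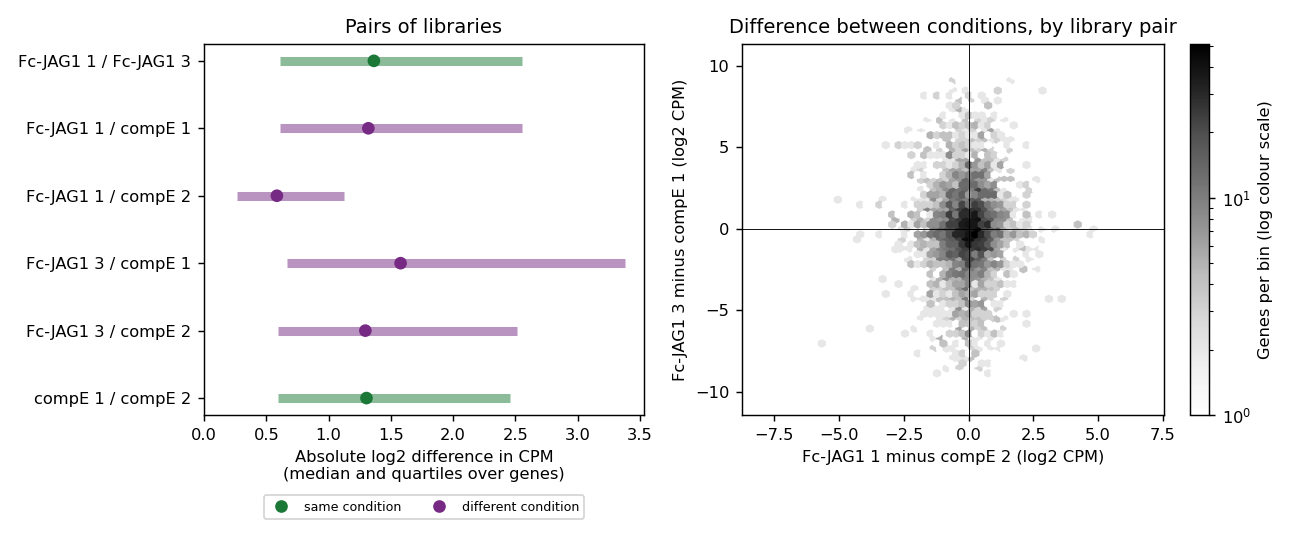
Left, the median (point) and quartiles (bar) of the absolute log2 CPM difference for each pair of libraries over 5171 genes, with pairs of a shared condition in green and of different conditions in purple. Right, for the same genes, the difference Fc-JAG1 1 minus compE 2 (x axis, log2 CPM) against Fc-JAG1 3 minus compE 1 (y axis, log2 CPM), shaded by genes per bin; the difference had the same direction in 2601 genes.

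Read within each pair, the difference between conditions took the same direction in 2601 of the 5171 genes (50.3%). It was at least 2-fold and higher with Fc-JAG1 in both pairs for 233 genes, at least 2-fold and lower in both for 297, and at least 2-fold but opposite for 505. Over the 5171 genes the fitted log2 fold change of Fc-JAG1 over compE had a median of 0.01, with quartiles of −0.79 and 0.80, and over all 8839 genes tested the median was −0.02.

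No gene passed edgeR's quasi-likelihood test at an adjusted p of 0.05, either among the 8839 genes (0.0%) or among the 5171 (0.0%), and the smallest adjusted p values were 0.582 and 0.927. At an unadjusted p under 0.05 there were 397 genes (4.49%), for which edgeR placed 184 genes higher with Fc-JAG1 (2.08% of the genes tested) and 213 lower (2.41%), and among the 5171 genes 64 (1.24%), 29 higher (0.561%) and 35 lower (0.677%). DESeq2, run on the same 4 libraries, called 228 genes higher (2.58%) and 323 lower (3.65%) at an adjusted p under 0.05, of which 21 (0.406%) and 32 (0.619%) were among the 5171. Of these 551 DESeq2 calls, 498 (90.4%) had under 10 counts in at least one library. With the sample number as a replicate block on all 7 libraries, as in the design of the study, edgeR again called 0 genes and DESeq2 called 1288, 1042 higher and 246 lower. Higher and lower therefore describe the values in these libraries, and each adjusted p names its tool.

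A looser description asks whether both Fc-JAG1 libraries lay above or below both compE libraries. In CPM with TMM scaling, both Fc-JAG1 libraries lay above both compE libraries for 1440 of the 8839 genes (16.3%) and below for 1539 (17.4%). For the 5171 genes the numbers were 741 (14.3%) and 761 (14.7%). The share of a gene group without overlap is read against these shares.

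Among the genes with 10 or more counts in all 4 libraries, the 10 of lowest p that lay above in Fc-JAG1 included genes of cell shape, kinase signaling and transcription. Gas7, an actin-binding growth arrest gene, had 357 and 10288 counts in Fc-JAG1 1 and 3 and 13 and 159 in compE 1 and 2 (log2 fold change 6.35, SE 2.30, adjusted p = 0.927 by edgeR). Pcdh7, a protocadherin of the cell surface, had 432 and 9688 against 16 and 142 counts (6.39, SE 2.37). Map4k4, a kinase upstream of JNK, had 3787 and 16727 against 50 and 1959 (3.81, SE 1.44). In these genes Fc-JAG1 3 was the highest and compE 1 the lowest library, and the gene-rich libraries lay between them, on the same sides but closer together.

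Transcriptional and signaling genes followed. Ifrd1, a co-regulator of histone deacetylases, had 9652 and 19763 counts under Fc-JAG1 against 842 and 4586 with compE (2.78, SE 1.15). Jarid2, a part of the PRC2 complex that deposits repressive histone methylation, had 6945 and 17870 against 660 and 4034 (2.78, SE 1.24). Il4ra, the receptor chain for IL-4 and IL-13, had 9354 and 25082 against 1783 and 7162 (2.30, SE 1.01). The groups did not overlap in any of these, but in each the Fc-JAG1 libraries differed more from each other than Fc-JAG1 1 did from compE 2.

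The others above in Fc-JAG1 were Rfc3, Nedd4l, Uspl1 and Yap1. Rfc3, a subunit of the clamp loader of DNA replication, had 6137 and 8427 counts with Fc-JAG1 and 12 and 1041 with compE (4.11, SE 1.77). Nedd4l, a ubiquitin ligase, had 5228 and 16852 against 776 and 2548. Uspl1, a SUMO protease, had 6588 and 15239 against 43 and 3640. Yap1, the transcription co-activator of the Hippo pathway, rested on a single library, with 38 and 5191 counts against 13 and 18. Of these 10 genes, DESeq2 called Gas7, Pcdh7, Map4k4, Ifrd1, Nedd4l, Jarid2 and Yap1.

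**Figure D3:**
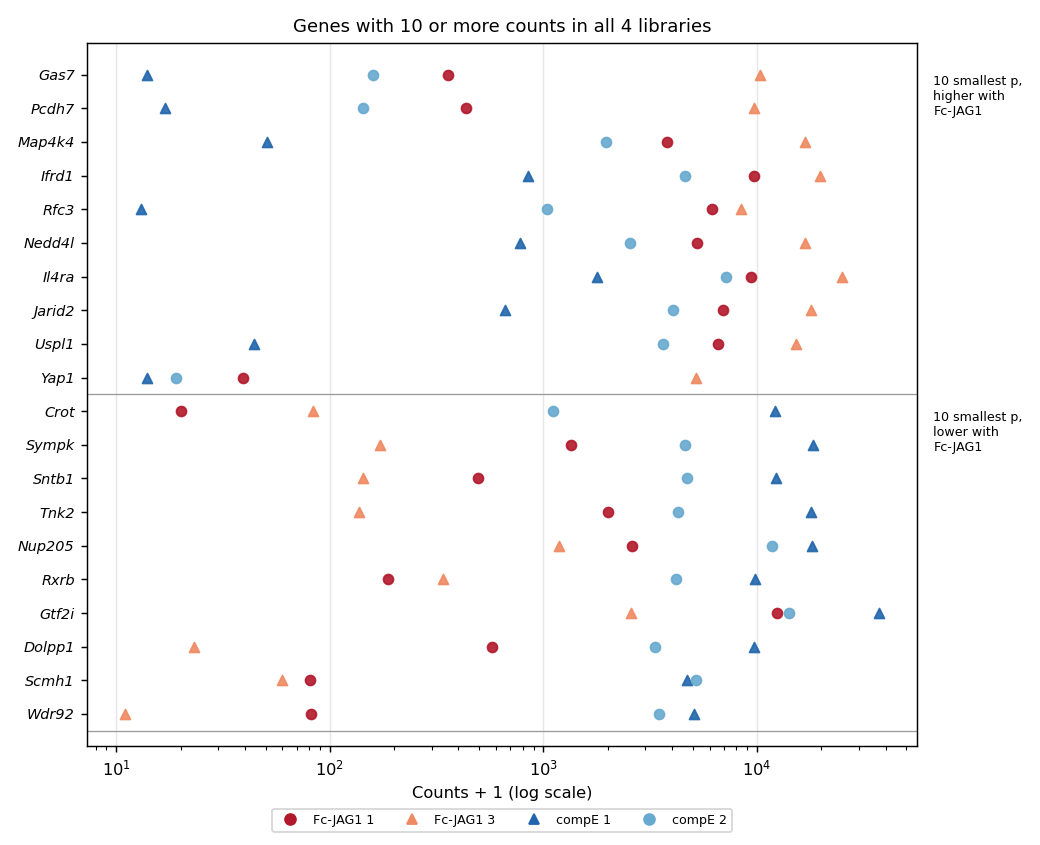
Counts plus 1 (x axis, log scale) in each of the 4 libraries for the 10 genes above and the 10 below in Fc-JAG1 of lowest p, of those with 10 or more counts in all 4 libraries. Red and orange mark Fc-JAG1, blue marks compE, circles the gene-rich and triangles the gene-poor libraries; in most genes the triangles lie at the ends, and Scmh1, with 80 and 59 against 4695 and 5203, is a gene whose libraries pair by condition.

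On the other side, the genes below in Fc-JAG1 held enzymes, RNA processing factors and nuclear proteins. Crot, which moves medium-chain acyl groups out of peroxisomes, had 19 and 82 counts with Fc-JAG1 and 12165 and 1112 with compE (log2 fold change −7.16, SE 2.35, adjusted p = 0.927 by edgeR). Sympk, the scaffold of the machinery that cuts and polyadenylates mRNA, had 1347 and 170 against 18234 and 4620 (−4.16, SE 1.46). Sntb1, a syntrophin of the dystrophin complex, had 495 and 142 against 12246 and 4701 (−4.88, SE 1.78). Both gene-rich and gene-poor pairs showed these differences, with compE 1 as the highest library.

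A kinase, a nuclear receptor and a general transcription factor were also in this set. Tnk2, a non-receptor tyrosine kinase, had 2001 and 136 counts under Fc-JAG1 against 17818 and 4245 with compE (−3.66, SE 1.42). Rxrb, a retinoid X receptor, had 186 and 336 against 9746 and 4170 (−4.73, SE 1.92). Gtf2i, a general transcription factor, had 12413 and 2559 against 37263 and 14144 (−2.00, SE 0.82). For Gtf2i, Fc-JAG1 1 and compE 2 lay close together, and the groups were kept apart mainly by the gene-poor libraries. Dolpp1, which recycles dolichol phosphate for protein glycosylation, had 576 and 22 against 9703 and 3340 (−4.66, SE 1.94).

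Scmh1, Nup205 and Wdr92 lay below by a wide margin in the gene-rich as in the gene-poor pair. Scmh1, a Polycomb group protein (chr4:120405281-120530186, plus strand, GRCm38), had 80 and 59 counts with Fc-JAG1 and 4695 and 5203 with compE (−6.11, SE 2.56, adjusted p = 0.927 by edgeR; adjusted p = 8.58e-05 by DESeq2). Nup205, a scaffold protein of the nuclear pore (chr6:35177421-35247596, plus strand), had 2591 and 1182 against 18171 and 11796 (−3.06, SE 1.22; adjusted p = 0.00124 by DESeq2). Wdr92, an adaptor for assembly of protein complexes (chr11:17182107-17233796, plus strand), had 81 and 10 against 5044 and 3490 (−6.59, SE 2.79; adjusted p = 0.000246 by DESeq2). DESeq2 called all 10 genes of this side but Gtf2i.

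DESeq2 was rerun without each library in turn, and 6 of its 53 calls among the 5171 genes held the same direction and threshold in all 4 fits. These 6 genes are named after their values were seen. Besides Scmh1, Nup205 and Wdr92 they were Rabif, Magi1 and C230062I16Rik. Rabif, a chaperone of Rab GTPases, had 1831 and 1724 counts with Fc-JAG1 and 37 and 71 with compE (5.16, SE 3.07). Magi1, a scaffold of cell junctions, had 1863 and 3635 against 17 and 15 (7.61, SE 3.50). C230062I16Rik, a gene known by its clone name, had 13 and 12 against 308 and 1073 (−5.62, SE 3.42). On a log scale, the counts of a condition lay closer to each other than to any library of the other condition in each of the 6 genes. This follows in part from how the 6 were chosen and supports nothing. The unadjusted edgeR p values of these 6 ran up to 0.100 for C230062I16Rik, and none passed adjustment.

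For genes that passed the filter through a single condition, a difference follows in part from that filter. Their number therefore supports nothing, and only their values are given. The 12 protein-coding or named genes with the smallest p above in Fc-JAG1 were mostly of few counts. Tcte1, a gene of the sperm tail, had 50 and 13 counts with Fc-JAG1 and 0 in both compE libraries (adjusted p = 0.682 by edgeR). A4galt, which makes the glycolipid Gb3, had 15 and 50 against 0 and 0, and Prom1, the surface protein CD133, had 13 and 14 against 1 and 2. Larger counts were seen in Fc-JAG1 3, where Nipal3 stood far above the other libraries. Nipal3 had 16 and 10182 against 2 and 7, and Plekho1, a regulator of the actin cytoskeleton, had 2525 and 15637 against 0 and 1106. The other genes of this set were Gm14698, Atp6v1c2, Isoc2a, Sned1 and Slc26a9, each with 11 to 71 counts in either Fc-JAG1 library and at most 3 in either compE library, and Faah and Gas7, given elsewhere.

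Below in Fc-JAG1, Cyp2j9, a cytochrome P450, had no count with Fc-JAG1 and 25 and 19 with compE (adjusted p = 0.682 by edgeR). Aasdh had 5 and 0 counts against 9393 and 410, and Baiap2, an adaptor of membrane protrusions, had 72 and 1 against 8312 and 3173. Klhl24, a partner of a ubiquitin ligase, had 0 and 2 against 7798 and 1400. Platr25, protein-coding in the annotation used, had 4 and 1 against 8990 and 318. compE 1 was the highest library in these 4 larger genes. Ceacam20, Pnck, Gm21974, Dmgdh and Kcnu1 had at most 2 counts in either Fc-JAG1 library and 11 to 69 in either compE library.

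A total of 57 genes had 10 or more counts in both Fc-JAG1 libraries and 0 in both compE libraries, and 68 genes had the reverse. Counting any gene under 10 in the other condition, these were 214 and 278. No test is given for these counts, beside which 1779 genes were shared by the gene-rich pair alone and 93 by the gene-poor pair alone. A count of 0 allows up to 3 counts in that library, and folds against 0 are given as lower bounds on that floor, for counting error only.

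With Fc-JAG1 alone, the gene with most counts was Faah, which breaks down the endocannabinoid anandamide, at 492 and 8300 counts (at least 1702-fold higher, and 155-fold without Fc-JAG1 3). Adamtsl4, a protein of the extracellular matrix, had 812 and 6581 counts, and Ercc5, a nuclease of DNA repair, had 314 and 6421 (at least 1306-fold higher, and 99.1-fold without Fc-JAG1 3). Next came Pgghg with 1279 and 5369, Tmem81 with 628 and 5855, Htra3, a secreted protease, with 498 and 5891, Mocs3, which acts in tRNA thiolation, with 970 and 4919, and B230118H07Rik with 939 and 4394. Fc-JAG1 3 exceeded Fc-JAG1 1 in all 8.

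With compE alone, Cd93, a surface protein of endothelial and hematopoietic stem and progenitor cells, had 7693 and 883 counts (at least 1443-fold lower with Fc-JAG1, and 253-fold without compE 1). Cgrrf1, a ring finger protein, had 4263 and 2370, Rnf215 had 5753 and 378, and Gpr137 had 4835 and 907. Prdm9, the histone methyltransferase that sets meiotic recombination sites, had 4886 and 697, Fam199x had 4890 and 590, Slc9a5, a sodium and proton exchanger, had 4975 and 60, and Ints12, a subunit of the Integrator complex, had 1837 and 2698. compE 1 was the higher library in 7 of the 8, the exception being Ints12.

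Of the Notch receptors and ligands, 13 had at least 1 count and 7 were tested. In Notch1, a receptor needed in the AGM, there were 3623 and 1157 counts with Fc-JAG1 and 683 and 5944 with compE, so the groups overlapped (log2 fold change −0.32, SE 1.80, adjusted p = 0.999 by edgeR). Notch2 lay above compE in both Fc-JAG1 libraries, with 1989 and 5218 counts against 837 and 1705, by less than the libraries' spread (1.78, SE 1.85, adjusted p = 0.999 by edgeR). Notch3 and Notch4 had at most 5 counts in any library. For the receptors the condition was not distinguishable from the spread between libraries.

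The ligands were low or scattered. Jag1, the gene of the ligand that was added as protein, had 21 and 7 counts with Fc-JAG1 and 462 and 10 with compE, where a single library, compE 1, held nearly all counts. Jag2 had 2489 and 0 against 203 and 40. Dll3, a ligand that acts in cis (chr7:28293553-28302238, minus strand), had no counts with Fc-JAG1 and 104 and 75 with compE (at least 28.5-fold lower with Fc-JAG1, adjusted p = 0.927 by edgeR; adjusted p = 0.000178 by DESeq2). Dll3 passed the filter on low counts through compE alone, so its difference follows in part from that filter and supports nothing. It is the only gene of the list with an unadjusted edgeR p under 0.05. Dll1 had 36 counts in compE 2 alone, and Dll4 had at most 1 count. Dlk1, a Notch-like protein without the usual receptor-binding part, had 1628 and 3091 against 3141 and 3401, and its relative Dlk2 had 448 counts in Fc-JAG1 1 alone. Dner had 15 and 11 against 54 and 18. Mfap5, a matrix protein that binds JAG1, had at most 13 counts. In this list 1 gene (Notch2) had no overlap above and 2 genes (Dner and Dll3) had none below. These were 14.3% and 28.6% of the 7 tested, beside 16.3% and 17.4% of all genes tested.

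**Figure D4:**
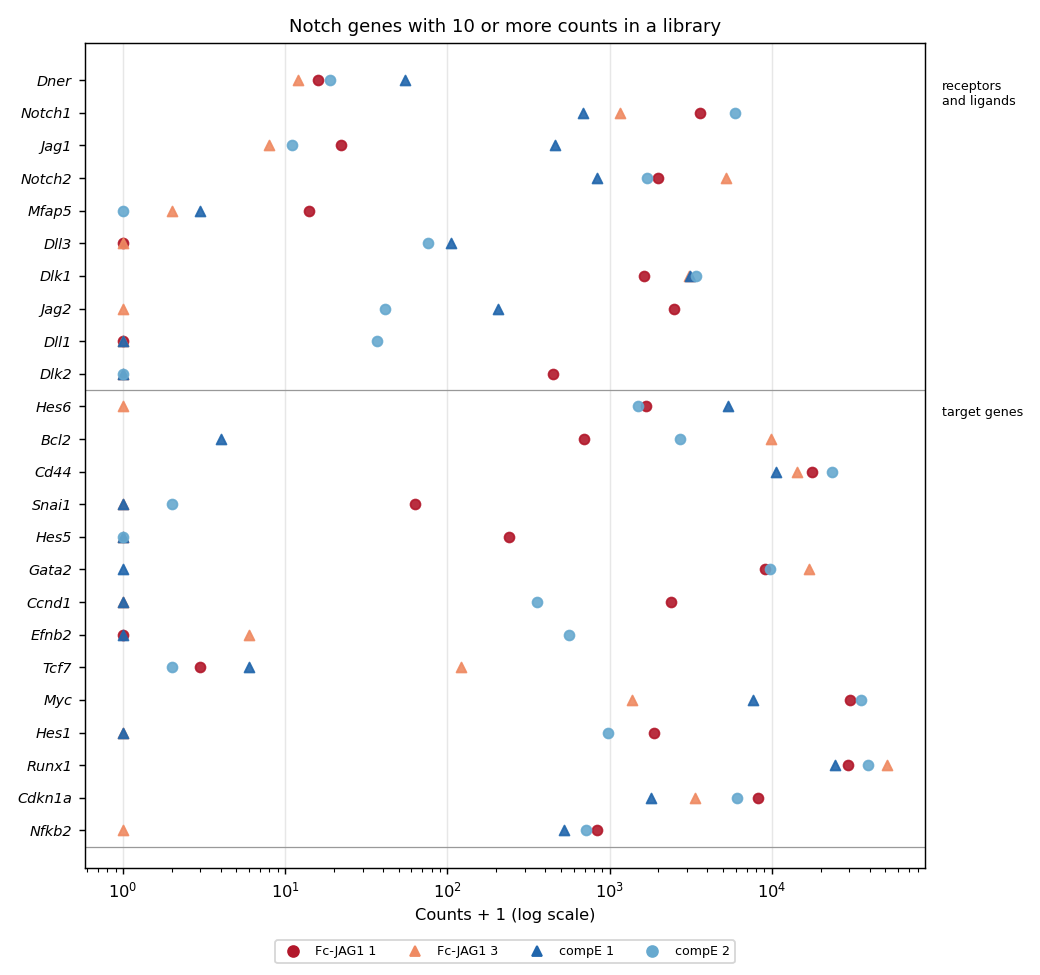
Counts plus 1 (x axis, log scale) in each library for Notch receptors and ligands (top) and Notch target genes (bottom) that had 10 or more counts in a library, with Fc-JAG1 in red and orange, compE in blue, circles for gene-rich and triangles for gene-poor libraries. Hes1 had 1867 counts in Fc-JAG1 1 and 977 in compE 2 and none in the gene-poor libraries; no target gene separates the conditions.

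Of the Notch target genes, 22 had at least 1 count and 8 were tested, and in none of the 8 were the groups without overlap, against 16.3% and 17.4% of all genes tested. Hes1, the target most often used as a readout of NOTCH, had 1867 and 0 counts in Fc-JAG1 1 and 3 and 0 and 977 in compE 1 and 2, so it was found in the gene-rich library of each condition. Hes5 had 239 counts in Fc-JAG1 1 and none in the other libraries. Hes6, a Hes relative that opposes HES1, had 1680 and 0 against 5352 and 1488. Hey2, Heyl, Hes7 and Dtx1 had at most 6 counts in any library. Fc-JAG1 3 and compE 1, where Hes1 was at 0, are the libraries with the fewest genes, and a difference in Hes1 between conditions was not detectable here.

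Targets with counts in all 4 libraries had small differences. Myc, which drives growth, had 30302 and 1369 counts with Fc-JAG1 and 7671 and 35489 with compE (−0.46, SE 0.81). Runx1, the transcription factor needed for blood formation, had 29610 and 51298 against 24479 and 39313 (0.55, SE 0.51). Cd44, an adhesion receptor for hyaluronan, had 17730 and 14283 against 10549 and 23321 (0.07, SE 0.82), and Cdkn1a, the cell cycle inhibitor p21, had 8216 and 3352 against 1803 and 6135 (0.65, SE 1.47). The median over these 4 was 0.31, beside 0.01 over all 5171 genes, and each gene overlapped between conditions.

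Gata2, an HSC transcription factor under direct NOTCH control in the AGM, had 9033 and 16991 counts with Fc-JAG1 and 0 and 9725 with compE, so the groups overlapped and only compE 1 was at 0 (1.85, SE 1.12, adjusted p = 0.95 by edgeR). Bcl2, a survival gene, had 695 and 9872 against 3 and 2720. Ccnd1, cyclin D1, had 2383 and 0 against 0 and 356, and Nfkb2 had 838 and 0 against 520 and 719. None of these kept the conditions apart, and the rest were found in a single library. Tcf7 had 120 counts in Fc-JAG1 3 and at most 5 elsewhere, Efnb2, an arterial ligand, had 561 in compE 2 and at most 5 elsewhere, and Snai1 had 62 in Fc-JAG1 1 and at most 1 elsewhere. Gata3, Il2ra and Ptcra, targets known from T cells, had at most 3 counts.

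The wider NOTCH machinery, 42 genes tested, had 7 genes above without overlap and 6 below (16.7% and 14.3%, beside 16.3% and 17.4%). None had an unadjusted edgeR p under 0.05. Numbl, an adaptor that curbs NOTCH, had 1 and 1 counts with Fc-JAG1 and 1574 and 582 with compE (adjusted p = 0.927 by edgeR). It was the only member called by DESeq2 (adjusted p = 9.52e-05), beside 3.65% of all genes tested called lower. Numbl passed the filter through compE alone, so its difference follows in part from that filter and supports nothing. Neurl3, of the Neuralized family, had 3566 and 862 against 10460 and 9217 (log2 fold change −2.25). Tle3, a co-repressor that works with HES proteins, had 4549 and 8759 against 14 and 2496 (2.81, SE 1.63). Tle4 had 3156 and 6533 against 1084 and 2008, while Tle1 had 1150 and 1 against 2440 and 3686, so relatives lay on opposite sides. The co-repressor Ncor1 had 4633 and 3392 against 10232 and 8353, and the co-activators Ep300, with 4913 and 3407 against 41 and 3513, and Kat2b, with 1265 and 5527 against 14 and 1306, were low in compE 1. The list's median was 0.23.

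Promoters were searched for the letters GTGGGAA, the core that RBPJ binds, on both strands within the 250 bases before the gene start (RefSeq windows, GRCm38.p6). It was present in 6.18% of 27025 promoters, in 6.24% of those matched among the genes tested (6758 of 8839) and in 5.54% of those among the 5171 genes. For genes of the 5171 without overlap it was found in 5.22% of the 575 matched above and 5.85% of the 615 below, and for genes with an unadjusted p under 0.05 in 8 of 132 above and 18 of 157 below. Of the 20 Notch target genes with a window, which did not include Hes1, 3 held it (Hes5, Hes7 and Hey2), and of the 13 matched receptors and ligands 0 did. The sequences below are shown, in capitals at the match and on the strand of the gene, because Hes5 is a target gene with 2 matches and Rfc3 and Dolpp1 are the members of the sets above and below that hold one. Hes5 (chr4:154960673-154960922, plus strand) had 239, 0, 0 and 0 counts, Rfc3 (chr5:151651209-151651458, minus strand) lay above in Fc-JAG1, and Dolpp1 (chr2:30392004-30392253, plus strand) below. A match is not a site that is known to be bound.
Hes5: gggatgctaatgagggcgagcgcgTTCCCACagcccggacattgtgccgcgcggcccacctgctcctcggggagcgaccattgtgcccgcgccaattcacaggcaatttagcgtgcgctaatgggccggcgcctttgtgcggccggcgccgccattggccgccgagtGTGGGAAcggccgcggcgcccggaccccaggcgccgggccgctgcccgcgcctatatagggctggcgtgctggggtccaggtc
Rfc3: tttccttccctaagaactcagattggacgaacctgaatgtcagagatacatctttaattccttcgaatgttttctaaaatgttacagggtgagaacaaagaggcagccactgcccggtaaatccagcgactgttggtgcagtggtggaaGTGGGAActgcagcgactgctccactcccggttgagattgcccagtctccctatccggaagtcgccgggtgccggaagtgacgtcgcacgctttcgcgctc
Dolpp1: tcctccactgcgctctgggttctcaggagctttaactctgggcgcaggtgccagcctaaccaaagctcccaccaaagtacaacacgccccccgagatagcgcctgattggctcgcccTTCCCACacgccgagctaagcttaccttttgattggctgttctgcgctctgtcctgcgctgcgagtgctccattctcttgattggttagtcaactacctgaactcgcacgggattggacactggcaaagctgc

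In the lists that follow, the 3 members of lowest p were fixed by rule, but not all of them are printed. Further members were picked after their values were seen, as examples of either side. Shares without overlap are read beside 16.3% above and 17.4% below of all genes tested. Members tested with under 10 counts in any library passed the filter through a single condition. Their differences follow in part from that filter and support nothing. Among HSC transcription factors, 26 genes were tested, 3 lay above and 3 below without overlap, and none had an unadjusted edgeR p under 0.05. Hoxa9 had 0 and 10 counts with Fc-JAG1 and 23 and 716 with compE (adjusted p = 0.927 by edgeR). Erg, of the ETS family, had 1009 and 238 against 7260 and 1341 (−3.01, SE 1.95), and Kmt2a, a histone methyltransferase of Hox genes, had 2004 and 3851 against 20485 and 2508 with overlap. Myb, needed for definitive blood formation, had 10774 and 6294 against 1417 and 8279, and Lin28b, which marks fetal blood progenitors, had 7350 and 5811 against 68 and 6431. The median over the 19 members with counts in all 4 libraries was 0.02.

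Of the HSC surface markers and receptors, 30 were tested, 7 above and 6 below without overlap (23.3% and 20%). Cxcr4, the receptor for the homing signal CXCL12, had 412 and 13 counts with Fc-JAG1 and 0 and 0 with compE (at least 67.5-fold higher, and 5.09-fold with Fc-JAG1 3 alone, adjusted p = 0.927 by edgeR), and Cd93, described above, was the only member on the other side with an unadjusted p under 0.05. Kit, the stem cell factor receptor used in the sort, had 7722 and 10470 against 13796 and 19331 (−0.70, SE 0.92), and Cd34 had 2280 and 1811 against 8359 and 3850 (−1.62, SE 1.55). Ptprc (CD45), the pan-leukocyte phosphatase, had 5895 and 7149 against 2183 and 4498 (1.16, SE 1.43), Tgfbr2 had 4797 and 5432 against 1080 and 2784, and Il6ra had 1521 and 1428 against 1 and 186. Cd47, which protects cells from being eaten, had 37253 and 16614 against 45577 and 41801 (−0.74, SE 0.54). The differences of Kit, Cd34, Ptprc and Cd47 were smaller than 2 SE. Fgd5, a marker of HSCs and endothelium, had 151 and 6271 against 2 and 341.

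The sort was checked against its markers. Gfi1, whose reporter was sorted, had 2504 counts in Fc-JAG1 1 and 0 in Fc-JAG1 3, compE 1 and compE 2. Kit, Cd34, Ptprc, Runx1, Myb and Spi1 had over 1000 counts in all 4 libraries, and Pecam1 (CD31) had 5932 and 11 with Fc-JAG1 and 6314 and 6028 with compE. The endothelial cadherin Cdh5 had at most 3 counts, and Procr had 87 in compE 2 alone. The markers summed to 2701, 3129, 2769 and 3103 CPM in Fc-JAG1 1, Fc-JAG1 3, compE 1 and compE 2. Tal1 had 4023 and 0 counts with Fc-JAG1 and 1352 and 4595 with compE, and Itga2b had 8373 and 184 against 11056 and 9057, so Fc-JAG1 3 was low in several markers.

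Markers of other cells were present to differing degrees. The macrophage list, of which 15 genes had counts and 5 were tested, summed to 605 and 450 CPM with Fc-JAG1 and 92.4 and 479 CPM with compE, with C1qa, C1qc and Trem2 at 0. Lyz2 had 13012 and 601 against 0 and 5371, Cx3cr1 25 and 8268 against 5 and 922, and Csf1r 2031 and 2612 against 1471 and 3627. Adgre1 had 42 and 3 against 3 and 3361, Cd68 2041 and 0 against 1127 and 742, and Mpeg1 1258 and 0 against 0 and 1290. The erythrocyte list summed to 144 and 82.8 CPM with Fc-JAG1 and 22.2 and 234 CPM with compE. Of its embryonic globins, Hbb-y had 2142 counts in Fc-JAG1 3 alone and Hba-x 1035 in Fc-JAG1 1 alone. Hbb-bh1 had 1176 and 0 against 1 and 1797. Mesenchyme, neural and epithelial lists had no gene tested and summed to at most 21.7 CPM in any library. Their part in the results was not tested.

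The cell cycle lists held genes on both sides. Of 75 G2/M and mitosis genes tested, 9 lay above and 15 below without overlap (12% and 20%, beside 16.3% and 17.4%). An unadjusted edgeR p under 0.05 was held by 1 higher and 2 lower, beside 2.08% and 2.41% of all genes tested. Bub1b, a checkpoint kinase of mitosis, had 4474 and 96 counts under Fc-JAG1 against 19893 and 5498 with compE (−2.80, SE 1.25, adjusted p = 0.927 by edgeR). Espl1, the separase that parts sister chromatids, had 2004 and 20 against 9246 and 7023 (−3.21, SE 1.61, adjusted p = 0.927 by edgeR). Anapc13, of the anaphase-promoting complex, had 235 and 5182 against 0 and 112. Cdk1, Kif11, Mki67 and Rad21 also lay below, with Cdk1 at 11509 and 6548 against 18303 and 12116, all well within the spread (adjusted p = 0.999 for Cdk1 by edgeR). Over the 58 members with counts in all 4 libraries the median was −0.33, with 4 above and 14 below, beside 14.3% and 14.7% of the 5171 genes.

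G1/S and DNA replication genes numbered 66, with 12 above and 10 below (18.2% and 15.2%). Rfc3 and Rrm2, a subunit of ribonucleotide reductase (16799 and 9498 against 297 and 5799), lay above, while Pold1, the catalytic subunit of DNA polymerase δ (2364 and 288 against 12111 and 7834, −3.09, SE 1.46), and Dnmt1, the maintenance DNA methyltransferase (13426 and 2651 against 15914 and 22483), lay below. Cdc6, Dbf4 and Ccne2, which act at the start of replication, had 0 counts in compE 1 and at least 408 in each of the other libraries. The median over 49 members was −0.02.

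Chromatin remodeling genes, 61 tested, had 13 above and 8 below (21.3% and 13.1%, beside 16.3% and 17.4%), and none had an unadjusted p under 0.05. Ezh2, the histone methyltransferase of PRC2, had 3835 and 14952 counts with Fc-JAG1 and 1805 and 3962 with compE (2.03, SE 1.29), where Fc-JAG1 1 and compE 2 nearly coincided. Rsf1 had 1732 and 2635 against 208 and 73 and Mta3 2454 and 3872 against 677 and 504. Ino80, the ATPase of its complex, had 1174 and 195 against 2334 and 9733 (−3.06, SE 1.89). Of 47 MYC network and ribosome biogenesis genes, 11 lay above and 5 below (23.4% and 10.6%). Mxd4 and Mxd1, which oppose MYC, had counts with Fc-JAG1 alone (82 and 287, and 217 and 899), and Nme1 had them with compE alone (468 and 79). Srm, of polyamine synthesis, had 27599 and 32957 against 14103 and 26965 (0.75, SE 0.64). The medians of both lists over genes of all 4 libraries were 0.26 and 0.27.

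Cytokine and innate immune genes, 55 tested, had 9 above and 6 below (16.4% and 10.9%). Il6 had 1521 and 1736 counts with Fc-JAG1 and 2 and 0 with compE (adjusted p = 0.927 by edgeR; adjusted p = 0.000125 by DESeq2). Il6 passed the filter through Fc-JAG1 alone, so its difference follows in part from that filter and supports nothing. Il4ra, given above, and Tab3, an adaptor of TAK1 (347 and 45 against 1 and 0, adjusted p = 0.927 by edgeR), were above with an unadjusted p under 0.05, and Relb, an NF-κB subunit, had 1 and 6 against 16 and 513 (adjusted p = 0.927 by edgeR). Ccl4 had 1939 and 3008 against 0 and 229, and Ifngr1 3976 and 6145 against 0 and 1449, both absent from compE 1. Tab2 lay on the other side, with 5888 and 776 against 15607 and 10172. Of 18 MHC class I presentation genes, 8 lay above and 1 below without overlap (44.4% and 5.56% of the list, beside 16.3% and 17.4% of all genes), with no unadjusted p under 0.05. They included H2-K1 (6183 and 4917 against 545 and 4542), Erap1, which trims peptides (4324 and 2913 against 2 and 1030), and Psme2 (1509 and 3472 against 1 and 747). H2-Q1, H2-Q2, H2-Q5 and H2-Q7 are near-identical copies that share reads and are uncertain. In all 8 compE 1 was the lowest library, and over the 10 members with counts in all 4 libraries the median was −0.08, beside 1.30 over all 18. Of the 8, 2 were among those 10 members, and 6 passed the filter through Fc-JAG1 alone. The share of 44.4% and the median of 1.30 follow in part from that filter and support nothing. Interferon-stimulated genes, 13 tested, had 1 above (Irf1, 773 and 5326 against 0 and 577) and 4 below, or 7.69% and 30.8%.

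Myeloid, lymphoid and erythroid lists held genes on both sides, and few endothelial and arterial genes were tested. Of 21 myeloid genes 2 lay above and 2 below (9.52% each, beside 16.3% and 17.4%). Cebpa, a master factor of granulocytes, had 4255 and 1884 counts against 528 and 629 (2.41, SE 2.15). Of 18 lymphoid genes 3 lay above and 4 below (16.7% and 22.2%). Tox had 2470 and 12 against 6746 and 5816, and Ebf1, a B cell factor, had 257 and 7 against 7879 and 59 with overlap (adjusted p = 0.927 by edgeR). Of 26 erythroid and megakaryocyte genes 4 lay above and 4 below (15.4% each). Rhag, a red cell membrane protein, had 3282 and 5382 against 49 and 576 (4.08, SE 2.14; adjusted p = 0.0468 by DESeq2). Aqp1 went the other way, with no count in either Fc-JAG1 library (at least 242-fold lower, and 29.2-fold without compE 1; adjusted p = 0.000493 by DESeq2). DESeq2 thus called 1 gene of this list higher and 1 lower, beside 2.58% and 3.65% of all genes tested. Aqp1 passed the filter through compE alone, so its difference follows in part from that filter and supports nothing. Of 10 endothelial and arterial genes 1 lay above and 3 below without overlap (10% and 30%). Their median was −1.37, beside −0.02 over all genes tested. Of the 10, 6 had 10 or more counts in all 4 libraries. Among these 6, 0 lay above and 1 below, beside 14.3% and 14.7% of the 5171 genes. Nrp2 had 303 and 198 against 2 and 6, Tie1 had 273 and 0 against 3851 and 1037, and Vegfc had 5 and 0 against 4222 and 88 (adjusted p = 0.927 by edgeR). Nrp2 passed the filter through Fc-JAG1 alone, and Tie1 and Vegfc through compE alone, so their differences support nothing.

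**Figure D5:**
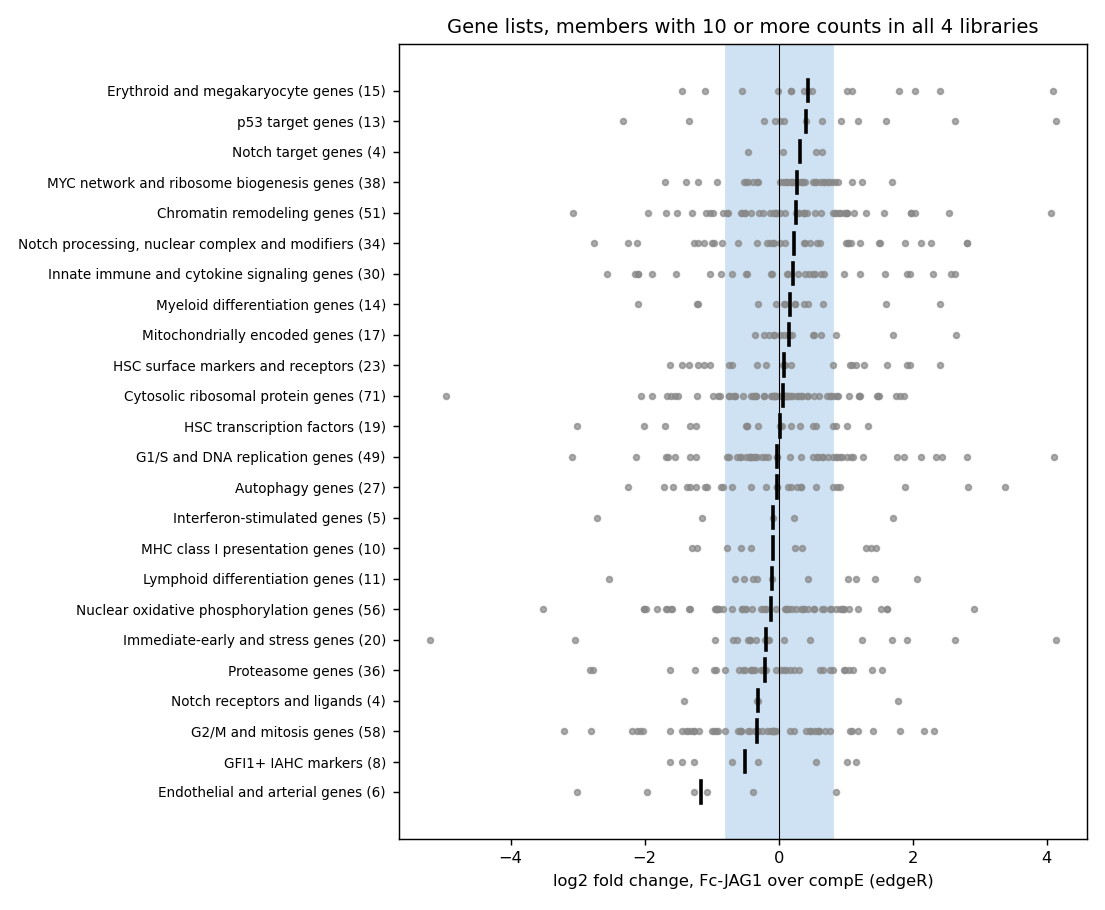
Log2 fold change of Fc-JAG1 over compE (x axis, edgeR) for members of each list with 10 or more counts in all 4 libraries (grey points, number in brackets) and the list median (black bar), with lists of at least 4 such genes. The blue band spans the quartiles of the 5171 genes, −0.79 to 0.80, and the endothelial and arterial median of −1.17 (6 genes) is the only one outside it.

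Genes of general cell work lay near zero as lists. Over 71 cytosolic ribosomal protein genes the median was 0.07, and their share of counts was 1.61%, 1.55%, 1.54% and 1.53% in Fc-JAG1 1, Fc-JAG1 3, compE 1 and compE 2. Within the list Rplp0 had 18420 and 9791 against 28933 and 21428 (−0.88, SE 0.74), and Rps28 had 28 and 42 against 1288 and 922. Of 76 nuclear oxidative phosphorylation genes 8 lay above and 18 below (10.5% and 23.7%, beside 16.3% and 17.4%), with a median of −0.11 over 56 members. Uqcrc2 and Uqcrc1, core subunits of complex III, lay below with 7175 and 1358 against 18119 and 12808 and with 4339 and 3531 against 16296 and 8280. Atp5b, of ATP synthase, lay above with 39067 and 32767 against 8935 and 33303. The mitochondrially encoded genes tracked gene richness rather than condition, with mt-Cytb at 169716 and 609831 against 592515 and 111209.

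Of 44 proteasome genes 8 lay above and 3 below (18.2% and 6.82%, beside 16.3% and 17.4%), with a median of −0.20 over 36 members. Of 50 autophagy genes 6 lay above and 8 below (12% and 16%). Nbr1, a receptor for cargo, had 73 and 5 counts under Fc-JAG1 against 6022 and 523 (adjusted p = 0.927 by edgeR), Pink1, which marks damaged mitochondria, had 1 and 0 against 385 and 366, and Atg4a had 0 and 2 against 1069 and 24. DESeq2 called these 3 of the 50 lower, beside 3.65% of all genes tested, but each passed the filter through compE alone, so the count supports nothing. Among 30 immediate-early and stress genes, 4 lay above and 4 below (13.3% each). Dusp1, a phosphatase that switches off MAP kinases, had 24 and 46 against 1790 and 730 (−5.21, SE 3.27), while Btg2 had 1805 and 4353 against 653 and 458 and Gadd45a had 532 and 2697 against 119 and 99 (4.14, SE 2.77). Of 19 p53 target genes 2 lay above and 5 below (10.5% and 26.3%), while the list's median was 0.41. Among its 13 members with 10 or more counts in all 4 libraries, 2 lay above and 2 below. Plk3 had 1700 and 10592 against 0 and 1846 with overlap (3.23, SE 1.69). Sesn2 had 2 and 0 against 170 and 1003, and Aen had 3314 and 253 against 10854 and 4089 (−2.33, SE 1.52). Plk3 passed the filter through Fc-JAG1 alone and Sesn2 through compE alone.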

How the data were processed

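Nascent RNA was measured in 7 libraries of GFI1+ IAHC cells, of which the 2 Fc-JAG1 and 2 compE libraries were compared. The 7 hold no Fc-JAG1 2 and no compE 3. By the authors' statement, Fc-JAG1 2 was left out for its low share of uniquely aligned reads. By the methods and the submitters' processing notes, the authors trimmed reads with cutadapt 4.2, aligned them with STAR 2.7.8 to GRCm38 (mm10) and counted uniquely mapped reads per gene with featureCounts (Subread 2.0.1). The deposited counts are unnormalized whole numbers per gene, and a filtered table from the authors holds 10311 of these genes with equal values. The authors also deposited log2 values, the variance-stabilizing transformation of DESeq2 1.38.3, which were not used. The strand setting of the counting is not given in the sources used here, so a gene and an overlapping or antisense partner cannot be told apart. Total counts ran from 26352927 to 33974693.

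All 8839 genes with 10 or more counts in both libraries of a condition were fitted in R 4.3.3 with edgeR 4.0.16 (TMM, quasi-likelihood test, condition only, two-sided, Benjamini-Hochberg adjustment over all of them, threshold 0.05; residual degrees of freedom 2). The common dispersion was 1.92. P-values measure only the spread between these libraries. CPM without overlap means that both libraries of a condition lay above both of the other after TMM scaling, log2 CPM used a prior count of 2, and summed CPM of lists and lower bounds on a fold used total counts and a floor of 3 counts per library. The scripts were tested on simulated counts. Alternatives were DESeq2 1.42.0, limma 3.58.1 (voom), other scalings, filters, all 7 libraries, the replicate block and leaving out each library. Figures were drawn with matplotlib 3.10.9 in Python 3.11.15. Positions and names came from GENCODE M21 (55227 of 55487 genes) and promoters from RefSeq (GRCm38.p6).

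The members and lists were chosen with earlier results of these data known. Genes were named by rule. On each side these were the 12 protein-coding or named genes of lowest p without overlap, the 10 of lowest p without overlap among genes with 10 or more counts in all 4 libraries, and the 8 with most counts among genes of a single treatment. All measured Notch receptors, ligands and targets were added. The 3 members of lowest p of each other list were picked as well, but not all of them are printed. Outside the rule, Rabif, Magi1, C230062I16Rik, Il6 and further members of lists were named after their values were seen.

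Libraries with the same sample number are paired by the labels and the methods. After the mean of each condition was taken out, same-numbered libraries had correlations across genes from −0.0711 to 0.104 (5 pairs). Within the 4 libraries only number 1 is shared, so the replicate block was fitted on all 7.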

Additional observations from a re-analysis of the deposited data

How the results depend on the processing

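With edgeR, 0 genes passed among all 8839 under DESeq2's size factors, total counts, the likelihood ratio test, the authors' filter (10281 genes), a term for gene-rich libraries, all 7 libraries without or with the replicate block, and in limma voom. No filter gave 2 (22890 genes: mt-Cytb and CT010467.1, both higher). A minimum of 50 counts gave 18 (7435 genes), all of which passed that minimum through a single condition. Leaving out a library gave 0 to 31 genes: 0 without Fc-JAG1 1 or compE 2, 5 (all higher) without Fc-JAG1 3 and 31 (all lower) without compE 1. The lone library of a condition was then assumed to vary like the others. Among the 5171 genes with 10 or more counts in all 4 libraries, the fit with no filter gave the same 2 genes. The other edgeR fits and voom gave 0, with the 50-count and the authors' filter read out for these genes after seeing the data, as did a minimum of 100 counts (3699 genes).

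DESeq2 called 551 genes, 53 of them among the 5171. With the replicate block on all 7 libraries it called 1288 and 176, and with no replicate block on all 7 libraries 227 and 8. With TMM factors it called 535 and 48, and with a term for gene-rich libraries 888 and 153. When Fc-JAG1 1 was left out it called 2793 (2277 lower) and 911, and for compE 2 left out 2554 (1984 higher) and 827. The numbers were 589 and 106 when Fc-JAG1 3 was left out, and 449 and 61 for compE 1. The terms for gene-rich libraries and the further DESeq2 fits were chosen after seeing the data. Of the 551 calls, 286 held in the same direction in all 4 fits that leave out a library, 6 of them among the 53. The replicate block kept 332 of the 551, and it changed no edgeR call. The cause of these shifts was not tested.

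Genes of a single treatment numbered 57 for Fc-JAG1 and 68 for compE. They were 214 and 278 when under 10 counts in the other condition was allowed, and 33 and 35 at 100 or more counts against 0. Of the genes picked by rule or as cell markers, printed or not, those without overlap were 57 higher and 63 lower. Among these, 1 of 57 higher and 3 of 63 lower changed sign under a setting other than a left-out library, which cannot turn the sign of such genes. Of 48 genes so picked with overlap, 32 changed sign without some library. Medians of the 26 lists with a gene tested changed sign in 5 lists when Fc-JAG1 1 was left out, in 9 for Fc-JAG1 3, and in 6 for either compE library. With 2 libraries a condition and no molecular identifiers, depth in captured molecules is unknown and limits each value.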

Other observations

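With a minimum of 50 counts in both libraries of a condition, 7435 genes were tested. Of these, edgeR placed 18 genes past an adjusted p of 0.05, 7 higher and 11 lower with Fc-JAG1. The 18 are named after their values were seen. The higher ones were Zfp937, Cnpy1, Rhpn2, Tnni2, Tmem116, Clec11a and Hoga1. Zfp937, a zinc finger gene, had 68 and 78 counts with Fc-JAG1 and 1 and 0 with compE, and Clec11a, a growth factor for blood progenitors, had 250 and 60 against 0 and 0. Besides Dll3, the lower ones were Nadsyn1, Stum, Gm11457, Gm12648, 4931422A03Rik, Gm28198, 9230104L09Rik, Hspb11, Zfp931 and Cep83os. Nadsyn1, which makes NAD, had 0 and 4 counts against 64 and 84, and Hspb11, a part of the transport machinery of cilia, had 1 and 1 against 74 and 218. All 18 passed the minimum through a single condition, and their counts in that condition ran from 50 to 261. Their differences follow in part from that filter, so these calls support nothing. The unadjusted edgeR p of Zfp937 was 0.0127 in the main fit and 2.8e-07 here.

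Some genes with 10 or more counts in all 4 libraries that DESeq2 called, and that the rule for naming genes left out, are given by their values, as picked after these were seen. Mctp1, a calcium-binding membrane protein, had 1680 and 2330 counts with Fc-JAG1 and 15818 and 13169 with compE (adjusted p = 0.0116 by DESeq2). Upf2, of nonsense-mediated decay, had 249 and 45 against 3421 and 3574, and Ezh1, the relative of Ezh2 in PRC2, had 408 and 34 against 7155 and 2703, on the side opposite to Ezh2. Pip4k2b, a lipid kinase, had 4730 and 4512 against 185 and 638, and Cd96, a receptor of lymphocytes, had 340 and 4055 against 27 and 19. None of these passed edgeR's adjusted threshold.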
